A study of Mus musculus with 9 samples.

Results

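The enzymes that make, remodel and break down sphingomyelin and ceramide were examined as a group of 10 genes in self-renewing mouse macrophage lines, with Smpdl3a and its relatives included. They were taken by symbol from a table of 24411 genes, and 9 of the 10 reached 1 TPM (the share of transcripts, corrected for length and scaled to the same total in every line) in at least 3 of the 9 lines and could enter a test. Sgms2 did not. The group was selected on the levels of Smpdl3a, which was high in FL lines and near 0 in YS lines. Those values are therefore given below as a description, and neither Smpdl3a in any comparison nor any member between YS and FL lines was tested.

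The 9 lines came from C57BL/6 mice, in 3 groups of 3 by origin. YS lines were grown from the yolk sac at E9.5, FL lines from the fetal liver at E14.5 and BM lines from adult bone marrow, in each case from cells pooled over several mice, and all groups were kept in long-term culture with M-CSF. A line is the bulk culture of 1 dish or well, so lines of an origin may share their starting cells, and the p-values below measure the spread between these cultures. The labels name no treatment and no genetic change in any group.

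Sphingomyelin is a major lipid of the outer leaflet of the plasma membrane and of the endocytic system. Sphingomyelinases cut it to ceramide, sphingomyelin synthases rebuild it by moving phosphocholine onto ceramide in the Golgi and at the plasma membrane, and ceramidases cut ceramide to sphingosine. Ceramide synthases attach a fatty acid of a preferred length to a sphingoid base. In macrophages, which take up membranes and cell debris all the time, the lysosomal arm of this cycle carries a heavy load, and sphingomyelin also shapes the membrane domains in which innate receptors signal.

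The 10 macrophage markers examined, among them Csf1r, Adgre1 (F4/80) and Itgam (CD11b), each reached 1 TPM in every line. Their summed level was 4636 to 9783 TPM in the YS lines, 12180 to 28800 TPM in the FL lines and 12040 to 13720 TPM in the BM lines. Lyz2 was the largest part of that sum in every line, at 1163.15 to 3531.31 TPM in the YS lines. It was at 5806.07 to 21976.14 TPM in the FL lines and 5986.16 to 7841.48 TPM in the BM lines. Between YS and BM lines, Lyz2 was lower and Fcgr1 higher in YS lines without overlap, and each of the other markers overlapped. Of 6 fibroblast markers none reached 1 TPM in every line of any group, and their sum was at most 0.97 TPM. The 4 endothelial markers summed to 5.37 to 56.04 TPM in the YS lines, 18.88 to 51.78 TPM in the FL lines and 0.08 to 1.7 TPM in the BM lines. Kdr was the largest part in YS lines 2 and 3 and in the FL lines, and Pecam1, at 4.91 TPM, in YS line 1, while Tek was at most 0.04 TPM in any line. The 4 hepatoblast markers summed to 9.51 to 21.35 TPM in the FL lines. They summed to 2.34 to 11.99 TPM in the YS lines and 5.44 to 15.76 TPM in the BM lines. The 6 granulocyte and mast cell markers summed to 10.49 to 25.11 TPM in the FL lines, all of it S100a8. In the other lines they summed to at most 5 TPM. The 4 lymphoid markers summed to at most 0.62 TPM. The part of these markers in the differences below was not tested. BM line 2 differed from the other BM lines in some genes. Over all tested genes it correlated at 0.979 with BM line 1 and 0.975 with BM line 3, which correlated at 0.985, and at 0.934 with YS line 2. For 45 genes that were below 0.5 TPM in the BM lines 1 and 3 but reached at least 20 TPM in YS line 2, the median level in BM line 2 was 14.1% of that in YS line 2. These genes were chosen for being low in BM lines 1 and 3, and no like set is given for another line. The 6 erythroid markers summed to 330.1 TPM in BM line 2. Differences without BM line 2 are given for Sgms1, Smpd1, Cers5 and Tmem173.

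Promoter windows of RefSeq, from 250 bases before to 50 bases after a transcript start, had entries for 8 of the 10 members, in 17 windows. The first window of Sgms1 is shown because Sgms1 had the largest difference of the 8 tested members from BM lines in both YS and FL lines, and that of Smpd1 because it had the next largest in YS lines. Both were searched on both strands for the GC box (GGGCGG) and the E-box (CACGTG), and capitals mark the matches. Coordinates are those of GRCm38.p6. The Sgms1 window lies at chr19:32388463-32388762 on the minus strand and holds 1 GC box and no E-box. That of Smpd1 lies at chr7:105554110-105554409 on the plus strand and holds 4 GC boxes and no E-box.
Sgms1: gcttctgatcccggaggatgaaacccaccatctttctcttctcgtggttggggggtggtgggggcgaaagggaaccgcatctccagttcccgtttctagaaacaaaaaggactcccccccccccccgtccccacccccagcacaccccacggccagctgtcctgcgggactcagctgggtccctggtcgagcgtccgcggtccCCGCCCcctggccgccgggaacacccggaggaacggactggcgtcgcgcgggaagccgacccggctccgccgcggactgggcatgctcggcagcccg
Smpd1: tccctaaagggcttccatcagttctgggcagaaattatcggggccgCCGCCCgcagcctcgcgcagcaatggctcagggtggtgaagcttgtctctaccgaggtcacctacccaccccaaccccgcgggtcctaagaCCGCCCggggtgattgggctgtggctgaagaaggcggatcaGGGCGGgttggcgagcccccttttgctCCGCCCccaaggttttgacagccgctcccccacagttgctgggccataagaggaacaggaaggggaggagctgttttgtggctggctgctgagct
A GC box occurred in 35.7% of all 32851 windows of this length and in 9 of the 17 member windows, and an E-box in 7.15% of all windows and in 5 of the 17. A match describes letters and not a binding site.

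The members were compared with limma on log2(TPM + 1) across all 11753 genes tested, and a gene was called at a false discovery rate (FDR) under 0.1 and more than 2-fold. In YS lines against BM lines, 1 of the 8 tested members was called, the lower Sgms1, where 12.8% of all tested genes were called. In FL lines against BM lines, 1 of 8 was called, again the lower Sgms1, where 10.3% of all genes were called. The median log2 difference of the 8 was -0.30 in YS against BM lines, where it was 0.11 over all genes, and -0.14 in FL against BM lines, where it was 0.09. By the FDR alone, 4 of the 8 passed in YS against BM lines, where 37.9% of all genes did, and 1 of the 8 in FL against BM lines, where 27.6% did. These 2 comparisons share the BM lines. Sgms1 is the Golgi sphingomyelin synthase, and the other 7 tested members differed by less than 2-fold in both comparisons. In bulk RNA, fewer cells expressing a gene and less of its RNA per cell cannot be told apart.

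**Figure D1:**
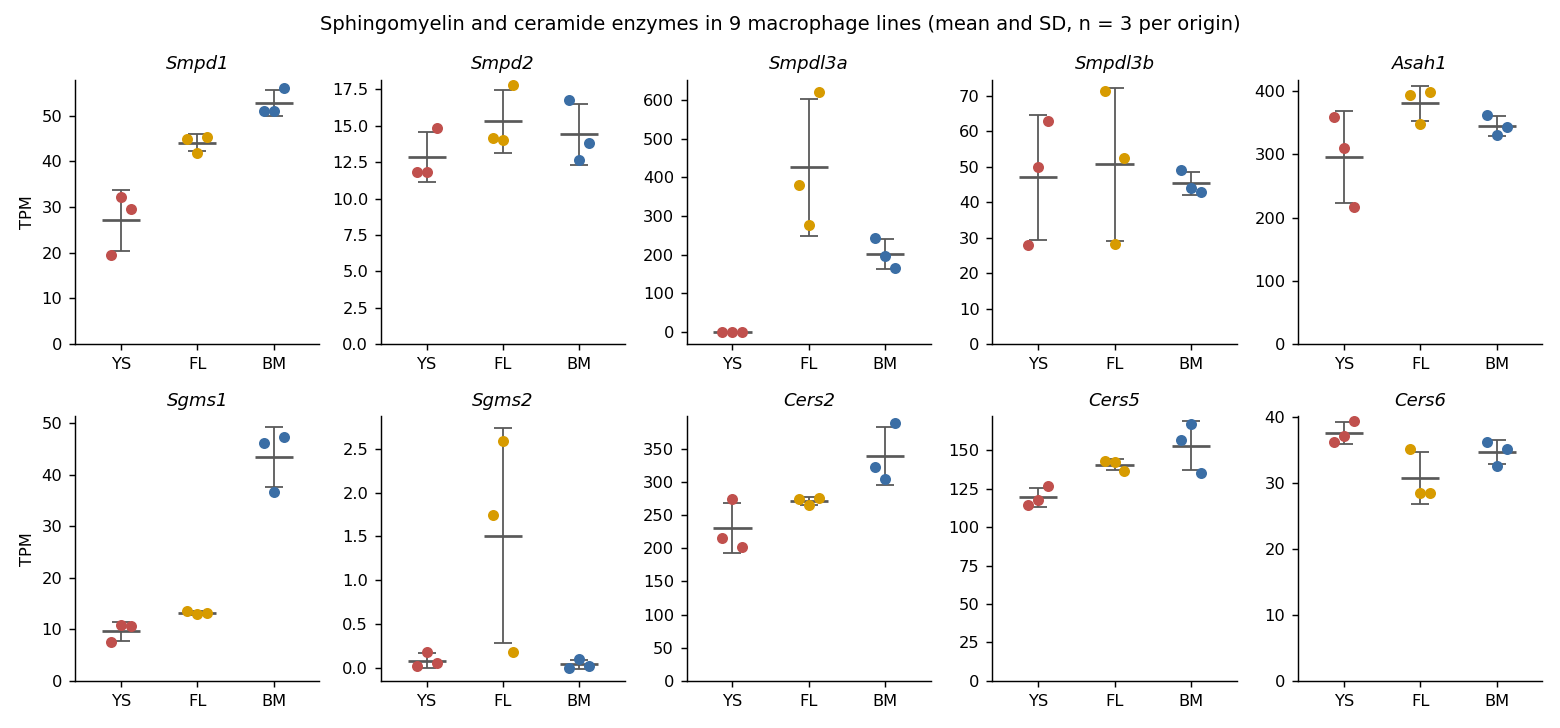
TPM (vertical axis, a separate linear scale for each gene) of the 10 members in each YS, FL and BM line. Points are lines, the horizontal bar is the mean and the error bar the SD of 3 lines. BM lines lie at 36.67 to 47.31 TPM for Sgms1, above all YS and FL lines, and Smpdl3a is at most 0.10 TPM in the YS lines.

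Sgms1 was at 7.45, 10.75 and 10.63 TPM in the YS lines, at 13.60, 12.90 and 13.08 TPM in the FL lines and at 46.09, 36.67 and 47.31 TPM in the BM lines. All 3 groups were apart, with every YS line below every FL line and every FL line below every BM line. The mean was 9.61 ± 1.87 TPM (SD, n = 3) in YS lines, 13.19 ± 0.36 TPM in the FL lines and 43.36 ± 5.82 TPM in the BM lines. The log2 difference from BM lines was -2.07 (SE 0.165, limma adjusted p = 0.000299) for YS lines and -1.64 (SE 0.165, limma adjusted p = 0.00071) for FL lines. Without BM line 2, the differences were -2.19 and -1.75 and both calls held. From the 24411 symbols ranked by TPM, Sgms1 stood at ranks 3706 to 4590 in BM lines and at ranks 7972 to 9193 in the other lines.

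Sgms2, the plasma membrane sphingomyelin synthase, was near the floor of the table. It was at 1.75, 2.59 and 0.18 TPM in the FL lines, at most 0.18 TPM in the YS lines and at most 0.10 TPM in the BM lines, with BM line 1 listed at 0. FL lines 1 and 2 were thus the lines with more than 1 TPM, and FL line 3 was level with YS line 2. Of the summed TPM of the sphingomyelin synthases, Sgms1 held 98.35% to 99.73% in YS lines, 83.28% to 98.64% in FL lines and at least 99.73% in BM lines. The 2 genes together came to 9.70 ± 1.93 TPM (SD, n = 3) in YS lines, 14.70 ± 1.25 TPM in the FL lines and 43.40 ± 5.78 TPM in the BM lines.

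Among the sphingomyelinases, Smpd1 encodes the lysosomal acid enzyme whose loss causes Niemann-Pick disease types A and B. It was at 19.49, 32.25 and 29.59 TPM in the YS lines, at 44.98, 41.93 and 45.27 TPM in the FL lines and at 51.12, 50.99 and 56.03 TPM in the BM lines, so that the 3 groups again did not overlap and stood in the same order as for Sgms1. The log2 difference of YS from BM lines was -0.96 (SE 0.174, limma adjusted p = 0.00652), which passed the FDR and stayed just short of 2-fold. It passed 2-fold when YS line 2 (-1.10) or YS line 3 (-1.04) was left out. Without YS line 1, the lowest line, it was -0.75, the smallest difference over the alternatives. With quantile normalization it was -1.09, and with median-of-ratios scaling -1.07, again past 2-fold. FL lines differed from BM lines by -0.25 (SE 0.174, limma adjusted p = 0.347), not past the threshold. The FL difference passed the FDR, under 2-fold, with only the 6 lines of the comparison (limma adjusted p = 0.0533) and without YS line 1 (limma adjusted p = 0.0674). Without BM line 2, the YS difference was -0.99 (limma adjusted p = 0.0205).

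The ratio of Smpd1 to Sgms1 TPM, the lysosomal hydrolase over the Golgi synthase, was 2.62 to 3.00 in YS lines, 3.25 to 3.46 in FL lines and 1.11 to 1.39 in BM lines. It was lower in each BM line than in any other line, although Smpd1 itself was highest in the BM lines, as was Sgms1. This is a description and was not tested.

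Smpd2, a neutral sphingomyelinase, was at 11.85, 11.85 and 14.87 TPM in the YS lines, 14.14, 14.00 and 17.83 TPM in the FL lines and 16.76, 12.66 and 13.80 TPM in the BM lines. The groups overlapped. The log2 difference from BM lines was -0.15 for YS lines (SE 0.163, limma adjusted p = 0.511) and 0.08 for FL lines (SE 0.163, limma adjusted p = 0.764).

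Smpdl3a is related in sequence to acid sphingomyelinase but cuts nucleotides and cGAMP, the messenger of cytosolic DNA sensing, rather than sphingomyelin. It was listed at 0.00, 0.09 and 0.10 TPM in the YS lines, against 379.52, 277.01 and 620.95 TPM in the FL lines and 242.85, 195.93 and 166.04 TPM in the BM lines. FL lines lay above all BM lines, and the gap between FL line 2 and BM line 1 was the narrowest. The mean of FL lines was 425.8 ± 176.6 TPM (SD, n = 3) and that of BM lines 201.6 ± 38.7 TPM. On the log2(TPM + 1) scale, FL lines differed from BM lines by 1.01 (SE 0.269). YS lines differed by -7.56, a value that depends on the pseudocount and was -10.32 with 0.1 TPM and -5.64 with 4 TPM. Between YS and FL lines, the contrast behind the choice of the members, it was -8.57 (SE 0.269). In ranks among 24411 symbols, Smpdl3a stood between 237 and 596 in FL lines, between 662 and 1016 in BM lines and at 13411 or lower in YS lines. It held 23.85% to 39.06% of the summed TPM of the 10 members in FL lines, 13.50% to 18.92% in BM lines and at most 0.0142% in YS lines.

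Smpdl3b, a membrane-anchored relative that restrains Toll-like receptor signalling in macrophages, was not split by origin. It was at 28.08, 50.04 and 62.94 TPM in the YS lines, 71.40, 28.26 and 52.31 TPM in the FL lines and 49.01, 44.02 and 42.96 TPM in the BM lines. YS and FL lines spread wide and BM lines lay inside both ranges. The log2 difference from BM lines was -0.02 for YS lines (SE 0.36, limma adjusted p = 0.973) and 0.06 for FL lines (SE 0.36, limma adjusted p = 0.923), and its sign turned when YS line 1 was left out (0.31 for YS lines) or FL line 1 (-0.23 for FL lines).

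Asah1, the acid ceramidase of the lysosome, was the member at the highest level in 7 of the 9 lines, the exceptions being FL line 3, where Smpdl3a was higher, and BM line 3, where Cers2 was. It was at 359.50, 310.27 and 216.68 TPM in the YS lines, 394.56, 348.61 and 398.69 TPM in the FL lines and 361.48, 330.47 and 343.93 TPM in the BM lines. YS line 3 was the lowest, and the ranges overlapped between every pair of groups. The log2 difference from BM lines was -0.25 for YS lines (SE 0.173, limma adjusted p = 0.296) and 0.14 for FL lines (SE 0.173, limma adjusted p = 0.624).

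The ceramide synthases among the members, Cers2, Cers5 and Cers6, summed to 387.9 ± 35.2 TPM (SD, n = 3) in YS lines, 443.6 ± 8.74 TPM in the FL lines and 526.8 ± 29.0 TPM in the BM lines. Cers4, which is not a member and was at 14.85 TPM in YS line 1, is not in this sum. Cers2, which makes ceramides with very long chains, held 54.99% to 69.55% of that sum in every line, Cers5 24.17% to 34.31% and Cers6 6.28% to 10.70%. Cers5 and Cers6 both favour palmitoyl chains. The order Cers2, Cers5, Cers6 held in each of the 9 lines.

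Cers2 was at 215.78, 273.97 and 202.74 TPM in the YS lines, 275.04, 265.15 and 276.19 TPM in the FL lines and 323.25, 305.05 and 389.16 TPM in the BM lines. BM lines lay above all YS and FL lines, and YS line 2 was level with FL lines. The log2 difference of YS from BM lines was -0.56 (SE 0.138, limma adjusted p = 0.0201), past the FDR and under 2-fold. FL lines differed by -0.31 (SE 0.138, limma adjusted p = 0.156), not past the FDR in this fit, whose spread is shared by all 9 lines. It passed the FDR with only the 6 lines of the comparison (limma adjusted p = 0.0664) and without YS line 2 (limma adjusted p = 0.0963). With median-of-ratios scaling it passed too (-0.40, limma adjusted p = 0.0869). All were under 2-fold.

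Cers5 was at 114.58, 117.44 and 126.49 TPM in the YS lines, 142.94, 142.47 and 136.72 TPM in the FL lines and 156.87, 166.87 and 135.25 TPM in the BM lines. YS lines lay below all others. The log2 difference of YS from BM lines was -0.35 (SE 0.102, limma adjusted p = 0.0356), under 2-fold, and it no longer passed the FDR without BM line 1 (-0.33, limma adjusted p = 0.122) or without BM line 2 (-0.29, limma adjusted p = 0.129). FL lines overlapped BM lines (-0.12, SE 0.102, limma adjusted p = 0.478). Cers6 was at 36.17 to 39.45 TPM in the YS lines, 28.45 to 35.22 TPM in the FL lines and 32.62 to 36.17 TPM in the BM lines. Its difference from BM lines was 0.12 in YS lines (SE 0.116, limma adjusted p = 0.485) and -0.17 in FL lines (SE 0.116, limma adjusted p = 0.336).

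**Figure D2:**
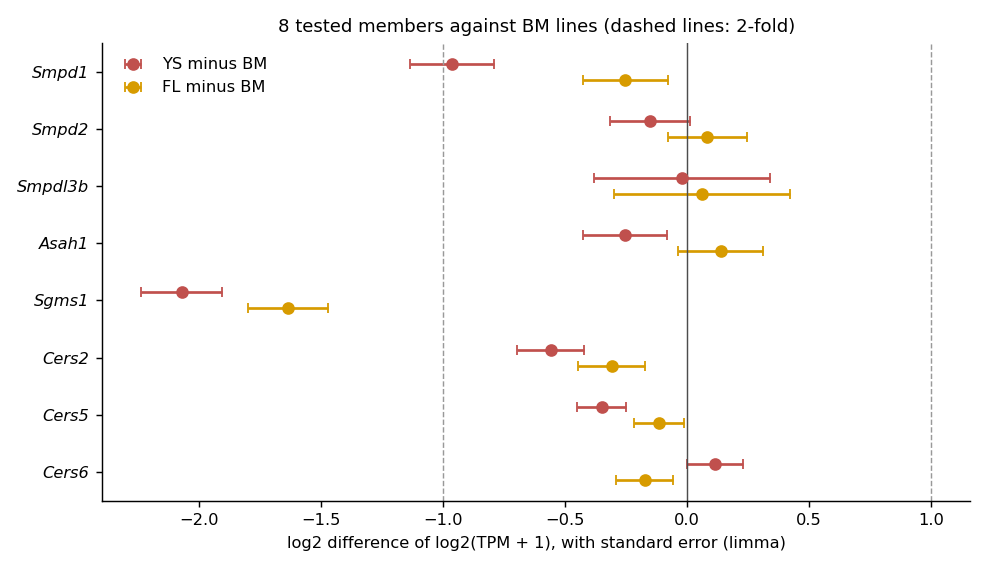
Log2 difference from BM lines (horizontal axis, on the log2(TPM + 1) scale) of the 8 tested members in YS lines and in FL lines. Points are limma estimates, bars their standard errors and dashed lines 2-fold. Sgms1 lies at -2.07 in YS lines and -1.64 in FL lines, and Smpd1 in YS lines at -0.96 lies just inside the 2-fold line.

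Between YS and FL lines, where the members carry no test, the log2 differences of the others were small beside that of Smpdl3a. YS lines were lower than FL lines by the most for Smpd1 (-0.71, SE 0.174) and Sgms1 (-0.44, SE 0.165). They were higher for Cers6 (0.29, SE 0.116). Smpd1, Sgms1, Cers5 and Cers6 did not overlap between YS and FL lines, whereas Smpd2, Smpdl3b, Asah1 and Cers2 did. Of all tested genes, 26.1% did not overlap between YS and FL lines, and nothing is read from the count of members here.

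To see how the rest of sphingolipid metabolism was expressed, 57 other genes of the pathway were examined by role, and 38 of them were tested. In YS against BM lines, 4 of 38 were called, 3 higher and 1 lower, which is 10.5% against 12.8% of all genes. In FL against BM lines, 3 were called, all higher, which is 7.89% against 10.3%. Both counts include Degs2, which passed the filter on low values only through the YS and FL lines, where it was higher. Between YS and FL lines, limma called 0 of 38, where 3.79% of all genes were called, and 11 of the 38 had an unadjusted p under 0.05, as did 25.7% of all genes. By the FDR alone, 15, 14 and 8 of the 38 passed in these comparisons, in that order, where 37.9%, 27.6% and 12.8% of all genes did. The shares called with the 2-fold threshold lie below those of all genes, while the shares by the FDR alone and by the unadjusted p lie above them. Nothing particular to the pathway is read from these shares.

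The 3 genes higher in both YS and FL lines than in BM lines were S1pr1, B4galt5 and Degs2. S1pr1 encodes a receptor for sphingosine 1-phosphate, the phosphorylated product of ceramidase action. It was at 107.08, 120.20 and 95.80 TPM in the YS lines, 86.93, 97.00 and 86.67 TPM in the FL lines and 38.58, 36.20 and 24.26 TPM in the BM lines. YS and FL lines lay above all BM lines, by 1.70 (SE 0.175, limma adjusted p = 0.00109) and 1.45 (SE 0.175, limma adjusted p = 0.00138) on the log2 scale.

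B4galt5, which builds lactosylceramide from glucosylceramide, was at 67.74, 94.95 and 98.01 TPM in the YS lines, 105.12, 76.80 and 124.31 TPM in the FL lines and 29.29, 41.83 and 29.15 TPM in the BM lines. The groups did not overlap with BM lines, and the log2 difference was 1.35 (SE 0.227, limma adjusted p = 0.00491) for YS lines and 1.58 (SE 0.227, limma adjusted p = 0.00265) for FL lines. Degs2, a desaturase and hydroxylase of dihydroceramide, was low throughout, at 3.32 to 6.97 TPM in the YS lines, 4.49 to 5.27 TPM in the FL lines and 0.00 to 0.76 TPM in the BM lines. It passed the filter on low values only through the YS and FL lines, so its differences from BM lines are given as a description. They were 2.17 in YS lines (SE 0.298) and 2.27 in FL lines (SE 0.298) on the log2 scale. Their size depends on the pseudocount, from 1.02 to 4.18 for YS lines over the alternatives.

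Gm2a, the GM2 activator of the lysosome, was the gene called lower in YS lines, at 7.26, 35.74 and 36.17 TPM against 64.51, 47.41 and 55.81 TPM in the BM lines (-1.33, SE 0.508, limma adjusted p = 0.0821). The call rested on YS line 1: without it the difference was -0.61, under 2-fold, and the call was also lost in 9 other alternatives, among them leaving out any FL or BM line (limma adjusted p of 0.103 to 0.205). FL lines, at 44.99 to 54.78 TPM, overlapped BM lines.

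Because Smpdl3a acts on cGAMP, the 6 genes of cGAMP synthesis, sensing and hydrolysis were read beside it. Mb21d1 (Cgas), the synthase, was at 59.83, 41.64 and 50.78 TPM in the YS lines, 44.81, 21.84 and 25.45 TPM in the FL lines and 19.86, 24.53 and 15.78 TPM in the BM lines. YS lines were higher than BM lines on the log2 scale (difference 1.303, SE 0.275, limma adjusted p = 0.0112), and FL lines by 0.54 (SE 0.275, limma adjusted p = 0.205), which did not pass.

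Tmem173 (Sting1), the receptor for cGAMP, was at 74.38, 86.86 and 163.53 TPM in the YS lines, 111.63, 77.36 and 101.39 TPM in the FL lines and 23.16, 44.23 and 18.61 TPM in the BM lines. It was higher in YS lines by 1.89 (SE 0.365, limma adjusted p = 0.00839) and in FL lines by 1.80 (SE 0.365, limma adjusted p = 0.0108) on the log2 scale. BM line 2 was the highest BM line, and without it the differences were 2.24 and 2.15. Tbk1 and Irf3, the kinase and transcription factor downstream, differed by at most 0.30 on that scale, and neither was called. Enpp1, another cGAMP hydrolase, ranged from 0.37 to 17.14 TPM in the FL lines, up to 4.02 TPM in the YS lines and up to 0.91 TPM in the BM lines and was not called. Enpp3 was listed at 0 in 8 of 9 lines.

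**Figure D3:**
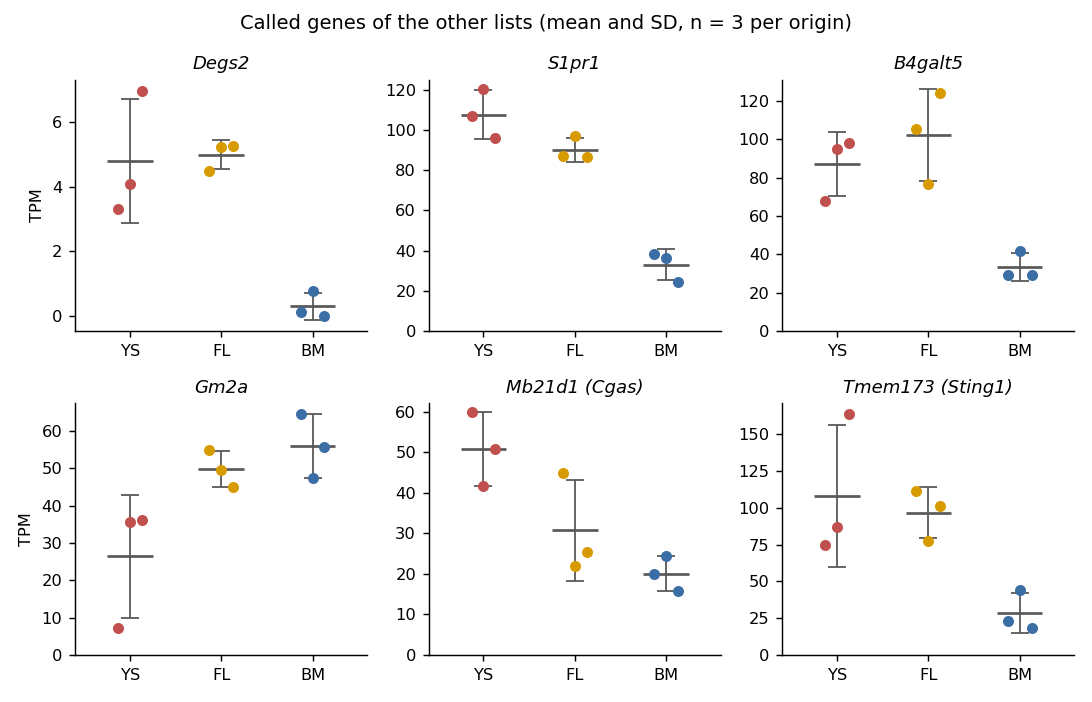
TPM (vertical axis, a separate linear scale for each gene) of the called genes of the pathway list (Degs2, S1pr1, B4galt5, Gm2a) and of the cGAMP genes (Mb21d1, Tmem173) by line. Points are lines, the horizontal bar is the mean and the error bar the SD of 3 lines. S1pr1 is at 86.67 TPM or more in YS and FL lines and at 38.58 TPM or less in BM lines.

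The 5 tested genes whose profile over the 9 lines was nearest to that of Smpdl3a, by the root mean square difference of centred log2(TPM + 1), were AI662270 (0.863), Car5b (1.753), Htr2b (2.306), Gm14548 (2.432) and Unc13d (2.447). They were chosen for their likeness, so their levels are a description. AI662270 was at most 0.42 TPM in the YS lines, 114.74 to 154.90 TPM in the FL lines and 136.15 to 157.37 TPM in the BM lines. Car5b, a mitochondrial carbonic anhydrase, was at most 0.10 TPM in the YS lines, 18.17 to 21.76 TPM in the FL lines and 31.37 to 43.43 TPM in the BM lines. Unlike Smpdl3a, both were lower in FL than in BM lines by mean log2 value. Htr2b, a serotonin receptor, reached 17.17 TPM in YS line 2, and Gm14548 reached 15.38 TPM there and 5.75 TPM in YS line 3, so neither was near 0 in every YS line. Unc13d, which acts in granule release, was at most 0.31 TPM in the YS lines, 3.84 to 26.94 TPM in the FL lines and 13.89 to 18.43 TPM in the BM lines.

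**Figure D4:**
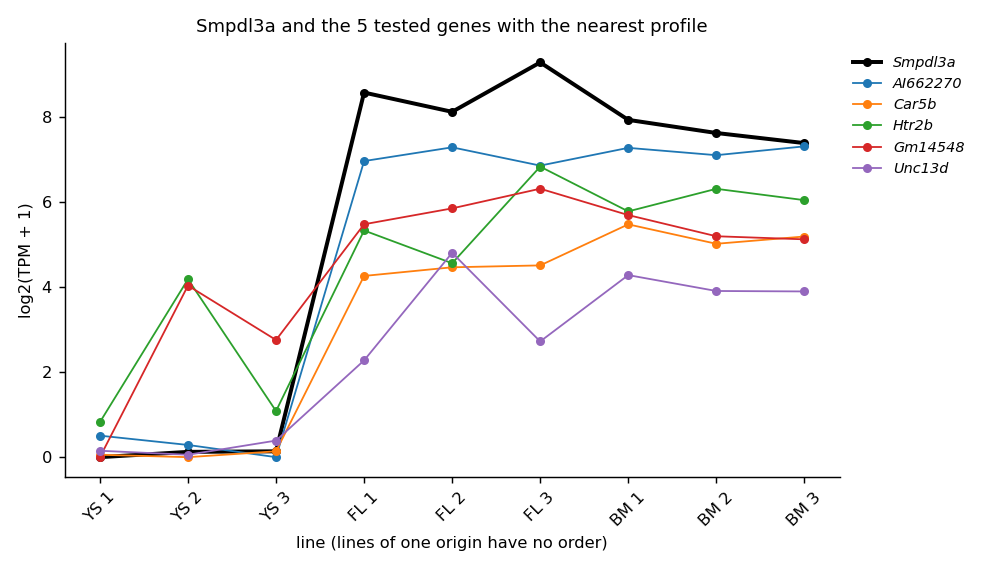
Log2(TPM + 1) of Smpdl3a and of the 5 tested genes with the nearest profile (vertical axis) in the 9 lines (horizontal axis). Smpdl3a, AI662270, Car5b and Unc13d are at most 0.42 TPM in each of the 3 YS lines, while Htr2b in YS line 2 and Gm14548 in YS lines 2 and 3 lie well above 0.

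Of the 6 nearest protein-coding genes around Smpdl3a in the RefSeq gene table, 4 had a row in the table of TPM. The neighbour before it, Fabp7, which encodes a fatty acid-binding protein of the brain, was at most 0.25 TPM in the YS lines, 9.70, 19.29 and 58.52 TPM in the FL lines and at most 0.40 TPM in the BM lines. It passed the filter on low values through the FL lines alone, so its difference from BM lines, 4.21 on the log2 scale (SE 0.525), is given as a description. Smpdl3a was high in both FL and BM lines. Serinc1 was at 137.25 to 187.81 TPM in the YS lines, 224.07 to 257.24 TPM in the FL lines and 279.71 to 294.30 TPM in the BM lines. Its difference between YS and BM lines was -0.81 (SE 0.126, limma adjusted p = 0.00389), under 2-fold. Pkib was at 3.20 to 13.83 TPM and not called against BM lines, and Gm4981 was listed at 0 in every line.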

How the data were processed

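RNA of 9 mouse macrophage lines (3 YS, 3 FL, 3 BM) was analysed, with lines grouped by the origin in the labels. The authors made poly(A)-selected directional libraries, and the submitters' processing notes name Trim Galore 0.6.6, STAR 2.7.9a and RSEM 1.3.3, while the genome build and annotation are not given in the sources used here. The authors deposited TPM for 24411 symbols, with each line summing to the same total, so depth is unknown and no counting intervals were computed. The authors' own test on counts, which were not used here, was DESeq2 through iDEP.

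From the deposited TPM, log2(TPM + 1) was fitted where 3 or more of the 9 lines reached 1 TPM, with limma 3.58.1 in R 4.3.3 (1 mean per origin and an intensity trend of the variance in the empirical Bayes step). P-values were adjusted after Benjamini and Hochberg, separately for each comparison. All adjusted p-values are from this limma fit, and fold changes are on the log2(TPM + 1) scale, which understates the change of low genes. An exact permutation test of 3 lines against 3 cannot go below 0.1 and was not used. The method was tested on simulated data.

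The members and lists were chosen with earlier results of these data known. Named genes were all members, up to 5 called genes of the pathway list per comparison by size of difference, the cGAMP genes, the neighbours of Smpdl3a and the 5 genes most like it. Symbols were matched to RefSeq names for 23194 of 24411, and promoter windows were taken from RefSeq (GRCm38.p6). Alternatives were other pseudocounts, filters, scalings and fits, a replicate block and leaving out each line.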

Additional observations from a re-analysis of the deposited data

How the results depend on the processing

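Over the alternatives, the Sgms1 calls held in both comparisons with BM lines, with the log2 difference between -2.19 and -1.80 for YS lines and between -1.75 and -1.45 for FL lines. The number of members called in YS against BM lines was 1 as reported, where 1504 of all 11753 tested genes were called. It was 2 with quantile normalization, where 1487 genes were called, and 2 with median-of-ratios scaling, where 1507 were. It was 4 with the FDR alone (37.9% of all genes), and leaving out a line gave 1 to 2. Where 2 were called, Smpd1 was the second one. Shares of all genes are not given for the runs that left out a line, and nothing is read from those counts. In FL against BM lines the number of members called was 2 with no filter, which lets Sgms2 in as higher. Sgms2 reached 1 TPM only in FL lines 1 and 2 and was at 0.18 TPM in FL line 3, so that call is only a description. The pathway list gave 15 calls in YS against BM lines, 14 in FL against BM lines and 8 in YS against FL lines with the FDR alone, which 37.9%, 27.6% and 12.8% of all genes passed, where 4, 3 and 0 were called. Between YS and FL lines it gave 1 with median-of-ratios scaling, where 439 of all 11753 tested genes were called, and 0 to 1 when a line was left out. Both scalings moved the median of all genes in YS against BM lines, from 0.11 to -0.01 with quantile normalization, and the share of calls that were higher from 59.2% to 48.7%. In FL against BM lines that share was 58.3% as reported and 51.7% with median-of-ratios scaling. When a FL line was left out, Fabp7 did not pass the filter. The added runs on called genes outside the member list were chosen after the data were seen, and there the calls lost, 10 in all, were of Gm2a.

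The labels share line numbers 1 to 3 between origins without saying that a number marks a shared batch. Same-numbered lines did not deviate together (correlations of -0.118 to 0.088), so the replicate block was only an alternative. With the replicate block, 1 member was called in each comparison with BM lines, and the pathway list gave 3, 3 and 0 calls. The share of all genes with the block is not given, and nothing is read from these counts. The depth behind TPM is unknown, so the levels of Sgms2 and of Smpdl3a in YS lines have no counting limit. Signs of differences that were not called turned for Smpdl3b (4 alternatives against BM lines in FL lines, 2 in YS lines), Smpd2 in FL lines (3) and Cers6 in YS lines (1).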

Other observations

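Glycosphingolipid breakdown in the lysosome included genes past the FDR that stayed under 2-fold. Hexa, a subunit of beta-hexosaminidase, was higher than in BM lines by 0.51 (SE 0.102, limma adjusted p = 0.00922) in YS lines and by 0.42 (SE 0.102, limma adjusted p = 0.021) in FL lines on the log2 scale. Glb1, the lysosomal beta-galactosidase, was higher by 0.64 in both (limma adjusted p = 0.00424 for YS and 0.00405 for FL lines). Psap, the precursor of the saposins, was lower in YS lines by 0.72 on that scale (SE 0.213, limma adjusted p = 0.0368) and overlapped between FL and BM lines. Ugcg, which makes glucosylceramide, was higher than in BM lines by 0.88 in YS lines (limma adjusted p = 0.0127) and 0.80 in FL lines (limma adjusted p = 0.021). These 4 were read after their values were seen.

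Cers4 was at 14.85 TPM in YS line 1 and at most 0.57 TPM in every other line, and did not pass the filter on low values. Degs1, the main dihydroceramide desaturase, was at 68.80 TPM in YS line 3 and 200.71 to 368.98 TPM in the other lines.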
